A study of Rattus norvegicus with 12 samples.

Results

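A set of 7 genes of the intestinal uptake of vitamin B12 (cobalamin) and folate were followed in the small intestine of Belgrade rats: Cubn, Amn, Lrp2, Tcn2, Folr1, Slc46a1 and Slc19a1. They are 7 of the 14217 genes that the platform annotation names by a single symbol on probe sets other than controls, and every probe set that carries only such a symbol was taken, whatever its result. That gave 8 probe sets, since Amn has 2 and each other gene has 1. Belgrade rats carry a recessive mutation, b, of Slc11a2, which encodes DMT1, an intestinal transporter of iron and other divalent metals. The 4 groups were jejunum of b/b homozygotes, jejunum of +/b heterozygotes, duodenum of b/b homozygotes and duodenum of +/b heterozygotes, each with 3 Affymetrix arrays of RNA from mucosal scrapes. Both genotypes carry the b allele, and no rats without it were analysed here. Each array stands for a group of rats and not for 1 animal, and 3 groups per genotype each supplied both segments. The sources used here do not give age, sex, diet or the number of rats per group.

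Dietary vitamin B12 reaches the distal small intestine bound to intrinsic factor, where the receptor of cubilin (Cubn) and amnionless (Amn) takes it up. Cubilin is a peripheral protein that binds the complex, amnionless anchors it in the membrane, and the endocytic receptor megalin (Lrp2) works with both in the kidney. Transcobalamin (Tcn2) carries the vitamin in blood after it has left the enterocyte. Dietary folate enters mainly in the proximal small intestine through the proton-coupled folate transporter Slc46a1, which has also been proposed as a carrier of heme. The reduced folate carrier Slc19a1 exchanges folate for organic anions at neutral pH, and folate receptor alpha (Folr1) binds folate at the cell surface and takes it up by endocytosis.

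The promoter windows of 3 genes are shown: Cubn and Slc19a1, whose transcripts differed between the segments in opposite directions, and Amn, the partner of Cubn. RefSeq promoter sequences (build GRCr8) were found for 5 of the 7 genes, and the 250 bases before each RefSeq start are printed 5′ to 3′ on the strand of the gene, in lower case with motif matches in capitals. The windows are chr17:81501695-81501944 on the minus strand for Cubn, chr6:136132317-136132566 on the plus strand for Amn and chr20:11600937-11601186 on the minus strand for Slc19a1, whose start in the promoter table lies inside the span of the gene, so that the annotated gene extends further upstream.
Cubn: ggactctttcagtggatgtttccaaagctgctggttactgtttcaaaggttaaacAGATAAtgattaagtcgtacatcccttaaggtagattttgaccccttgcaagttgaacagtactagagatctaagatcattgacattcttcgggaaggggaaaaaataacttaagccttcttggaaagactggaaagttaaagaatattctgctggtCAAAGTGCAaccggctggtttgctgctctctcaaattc
Amn: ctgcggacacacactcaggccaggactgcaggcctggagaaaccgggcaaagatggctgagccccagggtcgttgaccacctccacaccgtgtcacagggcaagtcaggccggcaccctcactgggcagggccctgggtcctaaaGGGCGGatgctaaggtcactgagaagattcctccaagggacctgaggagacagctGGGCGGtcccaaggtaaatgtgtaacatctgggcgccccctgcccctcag
Slc19a1: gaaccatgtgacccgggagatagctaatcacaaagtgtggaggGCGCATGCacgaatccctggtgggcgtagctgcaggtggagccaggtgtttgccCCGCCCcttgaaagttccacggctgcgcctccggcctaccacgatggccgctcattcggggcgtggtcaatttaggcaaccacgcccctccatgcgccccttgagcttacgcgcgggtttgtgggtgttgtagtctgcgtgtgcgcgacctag
The Cubn window is AT-rich, with 40.0% G and C and 3 CpG dinucleotides, whereas the Amn window has 62.8% and 8 and the Slc19a1 window 62.0% and 20. Over 33469 rat promoters of the same length the medians are 51.2% and 5. A set of 6 letter strings known from sites of intestinal or housekeeping factors, picked after the windows had been read, were searched on both strands. The Cubn window holds the GATA string AGATAA at positions -195 to -190 (-1 is the base before the start) and the HNF4 string CAAAGTNCA at -38 to -30, which 10.3% and 1.06% of all promoters hold. The window of Lrp2 holds the HNF4 string too. The Amn window holds the SP string GGGCGG at -105 to -100 and again at -50 to -45, and the Slc19a1 window holds its reverse complement at -153 to -148. That string is in 30.5% of promoters. Slc19a1 also holds the NRF1 string GCGCATGC, in 2.2% of promoters, at -207 to -200. The HNF1 half-site GTTAAT (6.45% of promoters) and the CDX string TTTATG (11.4%) are in none of the 3 printed windows. A match is a run of letters and no evidence of binding.

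Signals are linear intensities after each array was scaled to a 2% trimmed mean of 500, and they have no unit that allows one probe set to be set against another. In 10 arrays the deposited trimmed mean was 500.19 to 500.24, whereas +/b duodenum replicates 2 and 3 had 51.6 and 126.55 and were multiplied by 9.69 and 3.95. Replicate 1 of b/b duodenum stood apart: over the tested probe sets its Spearman correlations with the remaining arrays had a median of 0.871, against 0.895 to 0.932 for the rest. Segment markers followed the labels. The summed signal of 5 proximal markers was 2299 to 4463 in b/b jejunum and 2301 to 4237 in +/b jejunum, against 38208 to 93783 in b/b duodenum and 32245 to 42678 in +/b duodenum. Enterocyte markers, 6 of 8 measured (Sis and Lct were not), were high on every array. The group ranges of their sum overlapped, between 101477 and 305059. By gene, Mep1a was higher in b/b jejunum (15576 to 25393) than in b/b duodenum (8382 to 14438). Alpi was lower in +/b jejunum (14116 to 19834) than in +/b duodenum (26209 to 32636). The other enterocyte markers overlapped. The exocrine pancreas sum (9 of 10 measured) reached 7337 on the array of b/b duodenum replicate 3 and 147389 on that of +/b duodenum replicate 2, and was at most 1630 elsewhere. Of 7 crypt markers, 6 were measured. Ascl2, Lgr5, Cdk1 and the dimmer Top2a probe set were higher in b/b jejunum than in b/b duodenum without overlap. In +/b rats only that Top2a probe set was. In the duodenum, Ascl2 and that Top2a probe set were lower in b/b than in +/b rats without overlap. The rest of these comparisons overlapped. Ascl2 and Lgr5 were dim, with means of 108 and 101. The part of crypt cells in the member values was not tested. In such scrapes, fewer cells of a type and less RNA per cell cannot be told apart.

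Of the 6 tested genes, 3 differed between the segments. Cubn and Folr1 were higher in the jejunum and Slc19a1 was higher in the duodenum, each in all 6 groups of rats. In b/b rats 3 of the 7 tested member probe sets passed an adjusted p of 0.05 (limma, Benjamini-Hochberg over 17694 probe sets), where 0.763% of all tested probe sets did so. The segments did not overlap for 4 of the 7 (Cubn, Folr1, the brighter Amn probe set and Slc19a1), against 14.8% of all. In +/b rats 0 of 7 passed, where 0.0565% of all did, 10 probe sets in number, with 948 at an unadjusted p below 0.05, and the segments did not overlap for 3 of 7 (Cubn, Folr1 and Slc19a1), against 10.8% of all. Averaged over both genotypes, 3 of 7 passed against 1.4% of all. With the group of rats as a block, taken from the genotype and the replicate number in the titles, the counts were 5 of 7 in b/b rats (2.44% of all), 3 of 7 in +/b rats (0.486%) and 5 of 7 over both (4.49%). With an estimated correlation within groups of rats they were 4 of 7 (1.98% of all), 2 of 7 (0.311%) and 4 of 7 (4.02%). Arrays of the same number but of different rats also deviated together, so the number does not single out shared rats. The median change of all tested probe sets was 0.07 in b/b rats and 0.05 in +/b rats, on the log2 scale.

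Cubn, the intrinsic factor receptor, had a signal of 12903, 6632 and 6856 in b/b jejunum and 8992, 5234 and 4755 in +/b jejunum, against 1706, 376 and 381 in b/b duodenum and 1155, 1406 and 893 in +/b duodenum. Every jejunal array lay above every duodenal array of either genotype. The group means were 8797 ± 3558 in b/b jejunum and 6327 ± 2321 in +/b jejunum, against 821 ± 767 in b/b duodenum and 1151 ± 257 in +/b duodenum (SD, n = 3). Within each segment the genotypes overlapped. In b/b rats jejunal Cubn was 13-fold higher, a log2 change of 3.70 ± 0.48 (SE; 95% interval 2.68 to 4.72, adjusted p = 0.0018). In +/b rats the change was 2.41 ± 0.48 (1.39 to 3.43), with an adjusted p of 0.113 that became 0.00253 with the group of rats as a block. It was also called in +/b rats without b/b duodenum replicate 1, which stood apart (adjusted p = 0.00473), because all groups share one estimate of the spread. The jejunum was higher by 2.91, 4.09 and 4.11 in the b/b groups of rats and by 2.94, 1.88 and 2.39 in the +/b groups.

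Amn, the membrane anchor of cubilin, changed less. Its brighter probe set had 8680, 7361 and 7257 in b/b jejunum and 6821, 5946 and 5492 in +/b jejunum, against 5326, 3948 and 4971 in b/b duodenum and 4271, 5983 and 4465 in +/b duodenum. The b/b jejunal arrays lay above the b/b duodenal arrays and above all +/b arrays, and the +/b segments overlapped. The change was 0.71 ± 0.19 in b/b rats (0.30 to 1.13, adjusted p = 0.162) and 0.32 ± 0.19 in +/b rats (adjusted p = 0.941). The dimmer probe set had 5291, 2875 and 1641 in b/b jejunum and 2790, 1720.3 and 1076 in +/b jejunum, against 2810, 929 and 562 in b/b duodenum and 1261, 1381 and 1122 in +/b duodenum, with overlap in each segment and genotype comparison. It gave 1.35 ± 0.52 in b/b rats (adjusted p = 0.372; without b/b duodenum replicate 1, 1.99 and 0.0484) and 0.46 ± 0.52 in +/b rats (adjusted p = 0.974). Both probe sets had the same direction. With the group of rats as a block, both were called in b/b rats (adjusted p = 0.0291 and 0.0082) and neither was in +/b rats (0.468 and 0.482). With an estimated correlation within groups of rats the brighter was called in b/b rats (adjusted p = 0.0344) and the dimmer was not (0.0943).

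Lrp2, the gene of megalin, was near the bottom of the scale. It had 19.4, 27.9 and 101 in b/b jejunum and 169, 3.7 and 84.3 in +/b jejunum, against 294, 44.6 and 94.0 in b/b duodenum and 73.7, 107 and 23.4 in +/b duodenum. The groups overlapped in every comparison. Its mean of 86.8 over all 12 arrays was below the minimum of 100 for testing, and when it was fitted without that filter no comparison passed (adjusted p of 0.817 or more).

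Tcn2, the plasma carrier of cobalamin, was evenly bright. It had 8199, 6883 and 7455 in b/b jejunum and 7029, 6219 and 6223 in +/b jejunum, against 9332, 7996 and 7111 in b/b duodenum and 7978, 8446 and 6709 in +/b duodenum. The segment change was -0.11 ± 0.18 in b/b rats (95% interval -0.50 to 0.28) and -0.24 ± 0.18 in +/b rats (-0.63 to 0.14). Neither passed, and the intervals reach from -0.63 to 0.28 on the log2 scale.

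**Figure D1:**
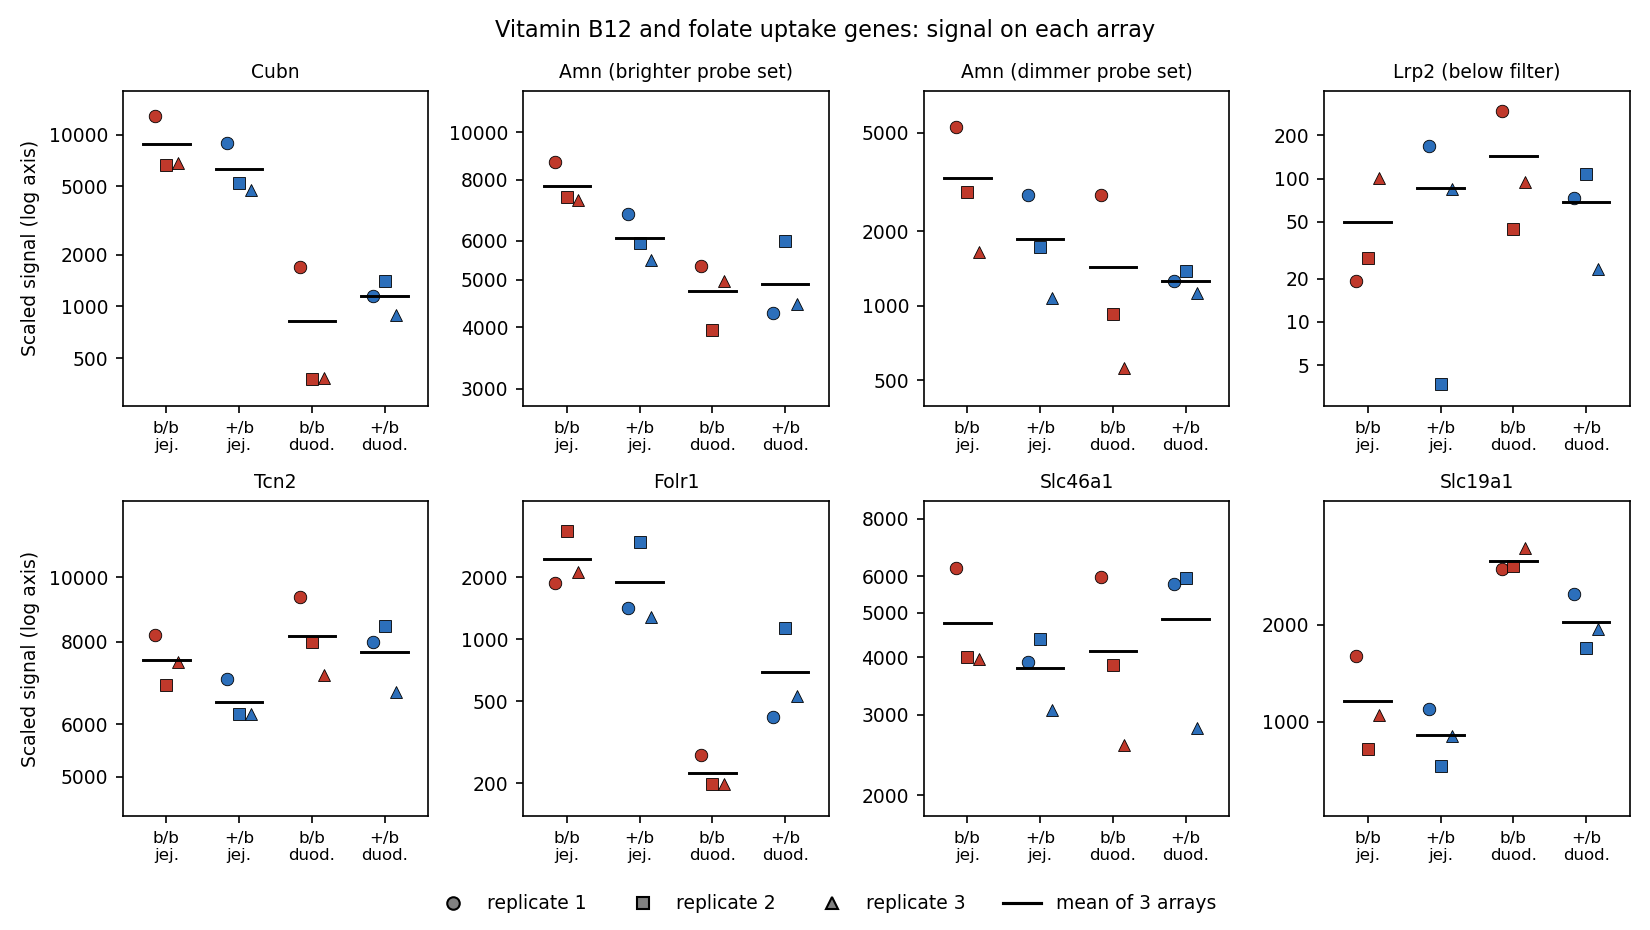
Scaled signal of each member probe set on each of the 12 arrays (log axis), by group, with marker shape for the replicate number and a bar at the mean of 3 arrays. Cubn and Folr1 lie higher in both jejunal groups, Slc19a1 lies higher in both duodenal groups, and for Tcn2, Slc46a1 and Lrp2 the groups overlap in each segment and genotype comparison.

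Folr1, a folate receptor anchored at the cell surface, had 1884, 3360 and 2130.3 in b/b jejunum and 1417, 2954 and 1287 in +/b jejunum, against 274, 197 and 198 in b/b duodenum and 421, 1128 and 530.3 in +/b duodenum. The jejunal arrays of either genotype lay above all duodenal arrays, and the b/b duodenal arrays lay below all +/b duodenal arrays. The group means were 2458 ± 791 in b/b jejunum, 1886 ± 927 in +/b jejunum, 223 ± 44.1 in b/b duodenum and 693 ± 380 in +/b duodenum (SD, n = 3). In the order of levels the jejunal groups were neighbours that overlapped, and the duodenal groups were separate. In b/b rats jejunal Folr1 was 10.1-fold higher (log2 change 3.34 ± 0.37, 2.54 to 4.14, adjusted p = 0.000509). In +/b rats the change was 1.45 ± 0.37 (0.65 to 2.25), with an adjusted p of 0.389, or 0.0184 with the group of rats as a block and 0.0567 with an estimated correlation within groups of rats. The jejunum was higher by 2.71, 3.98 and 3.32 in the b/b groups of rats and by 1.71, 1.38 and 1.25 in the +/b groups, so that the smallest b/b difference exceeded the largest +/b one.

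Slc19a1, the reduced folate carrier, ran the other way. It had 1600.2, 823 and 1051 in b/b jejunum and 1099, 728 and 903 in +/b jejunum, against 2992, 3042 and 3472 in b/b duodenum and 2491, 1692 and 1948 in +/b duodenum. All 4 groups stood in 2 tiers without overlap between the segments. The means were 1158 ± 399.5 in b/b jejunum and 910.1 ± 186 in +/b jejunum, against 3169 ± 264 in b/b duodenum and 2043 ± 408 in +/b duodenum (SD, n = 3). The jejunal groups overlapped and the duodenal groups did not. In b/b rats the jejunal signal was 2.81-fold lower (log2 change -1.49 ± 0.24, -2.01 to -0.97, adjusted p = 0.01). That call was lost without b/b duodenum replicate 2 (adjusted p = 0.0559), b/b duodenum replicate 3 (0.0543) or b/b jejunum replicate 2 (0.08), while the change stayed between -1.52 and -1.27. In +/b rats it was -1.15 ± 0.24 (-1.68 to -0.63, adjusted p = 0.16, or 0.0208 with the group of rats as a block). On the values as deposited without rescaling it turned to 0.55, where the median change of all tested probe sets was 1.6.

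Slc46a1, the proton-coupled folate transporter, showed no segment difference past the test. It had 6257, 3996 and 3969 in b/b jejunum and 3903, 4374 and 3076 in +/b jejunum, against 5986, 3841 and 2574 in b/b duodenum and 5784, 5949 and 2805 in +/b duodenum. All groups overlapped. The change was 0.25 ± 0.33 in b/b rats (-0.47 to 0.97, adjusted p = 0.905) and -0.29 ± 0.33 in +/b rats (-1.01 to 0.43, adjusted p = 0.979), so differences of about that size in either direction were not detectable.

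Averaged over both genotypes, the jejunal change was 3.05 ± 0.34 for Cubn (8.31-fold, adjusted p = 0.000292), 2.39 ± 0.26 for Folr1 (5.26-fold, adjusted p = 0.000292) and -1.32 ± 0.17 for Slc19a1 (2.5-fold lower, adjusted p = 0.00114). For Amn it was 0.52 ± 0.14 by the brighter probe set (adjusted p = 0.0944) and 0.91 ± 0.36 by the other (0.316), or 0.018 and 0.0078 with the group of rats as a block. With an estimated correlation within groups of rats these were 0.0195 and 0.0819. On the values as deposited the change of Slc19a1 was -0.47 and was not called (adjusted p = 0.411), where the median change of all tested probe sets was 0.84. The array with the highest pancreas sum was +/b duodenum replicate 2. Without it the +/b segment change was 2.56 for Cubn (adjusted p = 0.131), 1.86 for Folr1 (0.0725) and -1.28 for Slc19a1 (0.118). Without both arrays deposited unscaled, which left replicate 1 alone in +/b duodenum, the change was 2.38, 2.02 and -1.46. Without b/b duodenum replicate 3 the b/b change was 3.35 for Cubn (adjusted p = 0.0117) and 3.27 for Folr1 (0.00459). Cubn and Folr1 were higher in the jejunum in 6 of 6 groups of rats, as were 7.73% of all tested probe sets, and Slc19a1 was lower in 6 of 6, as were 4.85%. Of the distal markers (5 of 6 measured), Osr2, Nts and Fabp6 were higher in the jejunum over both genotypes by 3.54, 3.40 and 3.35 (adjusted p = 0.000168, 0.000467 and 0.0187), while Slc51a (0.11, adjusted p = 0.859) and Slc10a2 (-0.03, adjusted p = 0.986) did not pass. Their sums were 15489 to 28735 in b/b jejunum and 12442 to 20292 in +/b jejunum, against 9669 to 12026 in b/b duodenum and 9615 to 18331 in +/b duodenum. Of 6 goblet and Paneth markers, the Paneth cell products Pla2g2a (3.29, adjusted p = 0.0016) and Lyz2 (1.47, adjusted p = 0.0218) were higher in the jejunum, and the goblet markers Muc2 (0.02), Tff3 (-0.12) and Clca1 (0.15) did not pass. The Paneth marker Defa5, with a mean of 27.7 over all arrays, was too dim to be tested. The list sum was 62394 to 130028 in b/b jejunum and 69300 to 143857 in +/b jejunum, against 54583 to 119231 in b/b duodenum and 74672 to 109389 in +/b duodenum, and its part was not tested. Where along the jejunum the scrapes were taken is not given, and the part of position in these changes was not tested.

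**Figure D2:**
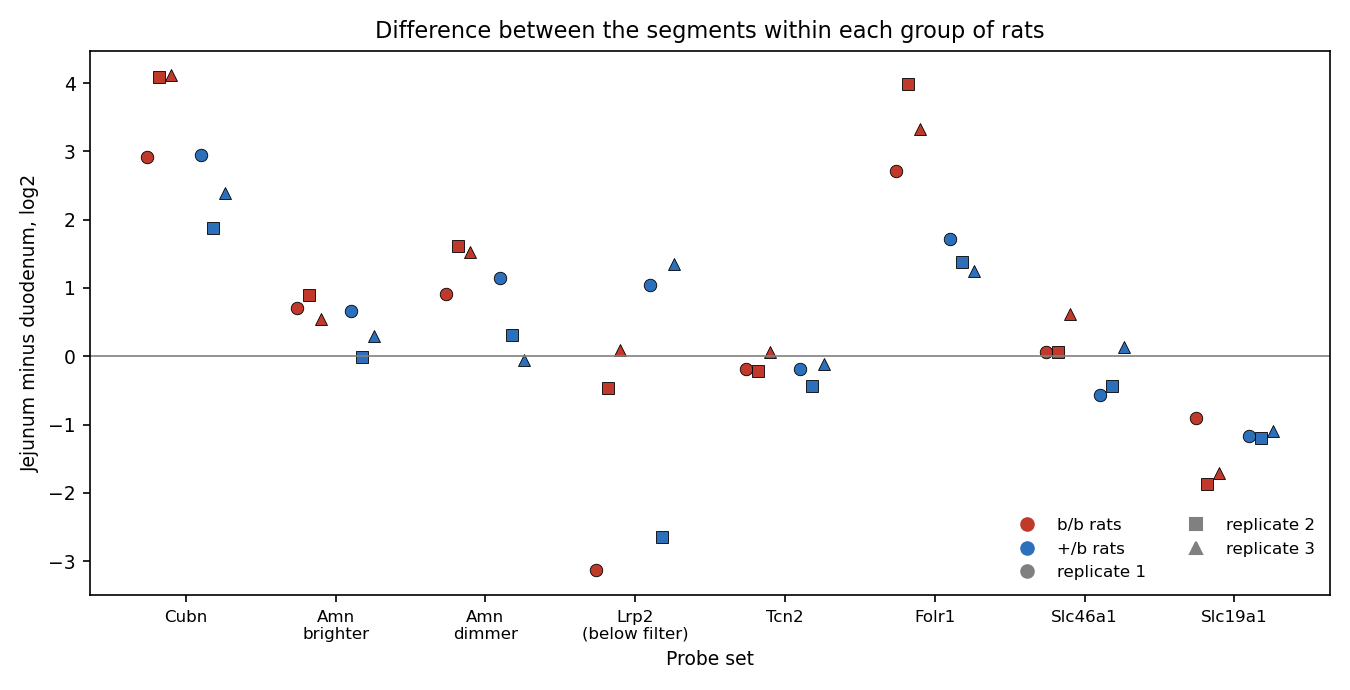
Log2 difference of jejunum minus duodenum within each group of rats for each member probe set, with the b/b groups beside the +/b groups. Cubn and Folr1 lie above 0 and Slc19a1 below 0 in all 6 groups, and the b/b values of Folr1 (2.71 to 3.98) lie above the +/b values (1.25 to 1.71).

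Between the genotypes, 0 of 7 tested member probe sets passed in the duodenum, where 0.0396% of all (7 probe sets) did, and 0 of 7 passed in the jejunum, where 0.0339% (6) did. Unadjusted p-values of limma were below 0.05 for 1092 and 237 of all tested probe sets. Among the members only Folr1 and Slc19a1 had duodenal groups that did not overlap, 2 of 7 against 8.7% of all, and only the brighter Amn probe set had jejunal groups that did not, 1 of 7 against 7.9%. Of the blood markers (3 of 5 measured), Hbb and Alas2 were higher in b/b rats without overlap in either segment. The brighter Slc4a1 probe set overlapped between the genotypes in both segments, with jejunal means of 90.5 in b/b and 131.0 in +/b rats. The dimmer one, below the filter, was higher in b/b rats without overlap. The list sums, mostly Hbb, were 10081 to 14174 in b/b jejunum against 1943 to 2995 in +/b jejunum. In the duodenum they were 12414 to 17530 in b/b rats against 1898 to 3508 in +/b rats. The part of blood in the genotype values below was not tested.

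Duodenal Folr1 was lower in b/b than in +/b rats, by a log2 change of -1.45 ± 0.37 (-2.25 to -0.65). It had rank 43 by p among 17694 probe sets, and its adjusted p was 0.654. Without +/b duodenum replicate 2, the array with the high pancreas sum and the highest duodenal Folr1, the change was -1.04 (adjusted p = 0.491). Without both arrays deposited unscaled, which left replicate 1 alone in +/b duodenum, it was -0.88. On the values as deposited it turned to 0.20, where the median change of all tested probe sets was 1.51. In the jejunum the change was 0.44 ± 0.37 (-0.36 to 1.24). The array of +/b duodenum replicate 2 also had the highest duodenal Nts (1883, elsewhere at most 542) and Osr2 (257, elsewhere at most 63.9). Its distal marker sum was 18331, against at most 12026 on the other duodenal arrays, though its Slc10a2 was not the highest. The part of this in its Folr1 was not tested.

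Duodenal Slc19a1 was higher in b/b rats, by 0.64 ± 0.24 (0.12 to 1.17, adjusted p = 0.789). Without both arrays deposited unscaled, which left replicate 1 alone in +/b duodenum, it was higher by 0.34. Jejunal Slc19a1 differed by 0.31 ± 0.24 (-0.22 to 0.83). For Cubn the duodenal difference was -0.83 ± 0.48 (-1.85 to 0.19, adjusted p = 0.808), with b/b replicate 1 above both other b/b arrays by more than the +/b arrays spread. Without that array it was -1.54 (adjusted p = 0.208). On the values as deposited it was 0.85, where the median change of all tested probe sets was 1.51. The jejunal difference of Cubn was 0.46 ± 0.48 (-0.56 to 1.48). For Amn the jejunal differences were 0.35 ± 0.19 and 0.75 ± 0.52, and the duodenal ones -0.04 ± 0.19 and -0.13 ± 0.52 (brighter probe set first). Leaving out 1 array moved the jejunal difference between 0.15 and 0.75 for Cubn, 0.19 and 0.81 for Folr1, 0.05 and 0.52 for Slc19a1, 0.33 and 1.17 for the dimmer Amn probe set and 0.09 and 0.42 for Slc46a1.

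Slc46a1, the member tied both to folate and, by proposal, to heme, did not pass in either segment. Its b/b change was 0.30 ± 0.33 in the jejunum (-0.41 to 1.02) and -0.23 ± 0.33 in the duodenum (-0.95 to 0.48, adjusted p = 0.936). Tcn2 differed by 0.21 in the jejunum (-0.18 to 0.60) and by 0.08 in the duodenum (-0.31 to 0.46). These intervals hold 0 and also hold changes of the size seen in duodenal Slc19a1 for Slc46a1, so the arrays do not show that the genotypes are alike.

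**Figure D3:**
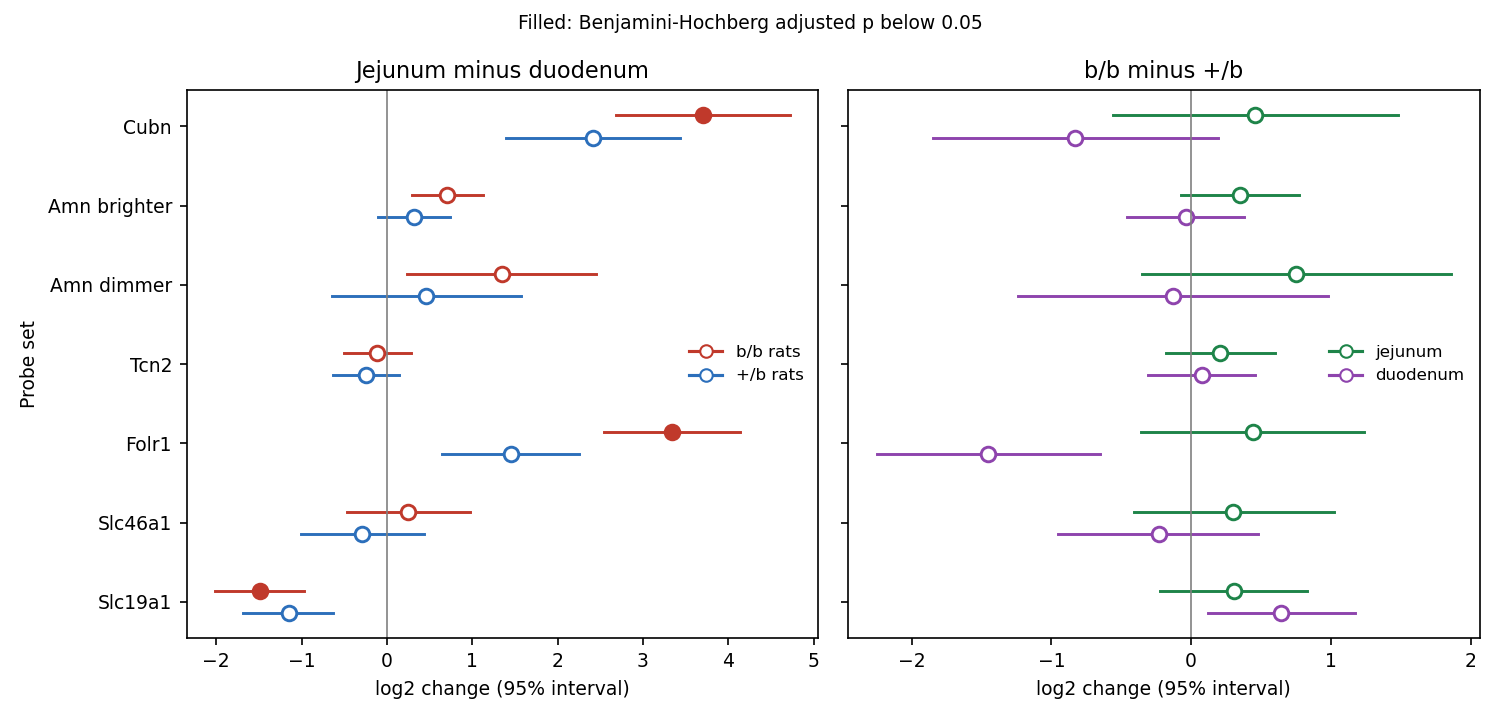
Log2 change with its 95% interval for the 7 tested member probe sets, jejunum minus duodenum in each genotype (left) and b/b minus +/b in each segment (right). Filled symbols mark an adjusted p below 0.05, which Cubn, Folr1 and Slc19a1 reached in the segment comparison of b/b rats and no probe set reached between genotypes.

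Whether the segment difference itself differed between the genotypes was tested as an interaction, and 0 of 7 member probe sets and 0% of all 17694 passed, with 306 of all at an unadjusted limma p below 0.05. Folr1 came nearest among the members. Its segment difference was larger in b/b than in +/b rats by 1.89 ± 0.53 (0.76 to 3.02, adjusted p = 1), and it had rank 12 by p. With the group of rats as a block the same 1.89 had an SE of 0.32 (1.19 to 2.59) and an adjusted p of 0.272, where 0.0113% of all probe sets passed. Without +/b duodenum replicate 2 the value was 1.48. Without both arrays deposited unscaled, which left replicate 1 alone in +/b duodenum, it was 1.32. For Cubn the interaction was 1.30 ± 0.67 (-0.15 to 2.74), with an adjusted p of 0.965 under the block, and for Slc19a1 it was -0.34 ± 0.35 (-1.08 to 0.40). The different outcome of the tests in b/b and +/b rats is therefore not shown to be a difference between the genotypes for any member.

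Correlations across the 12 arrays are given as description only, since the arrays share their segment. Cubn correlated with Amn (r = 0.88) and with Folr1 (0.88), Folr1 correlated negatively with Slc19a1 (-0.94), and Slc46a1 correlated with Tcn2 (0.71) but little with Cubn (0.29), Folr1 (0.17) or Slc19a1 (0.05), all on log2 values. After the 4 group means were taken out, Cubn and Folr1 had r = 0.14 and Folr1 and Slc19a1 -0.77. Within groups the correlation with the enterocyte marker sum was 0.89 for Cubn, 0.83 for Tcn2, 0.54 and 0.96 for the brighter and the dimmer Amn probe set and 0.88 for Slc46a1, whereas Lrp2 had 0.22, Folr1 0.18 and Slc19a1 0.28. The replicate 1 array had the highest enterocyte sum in every group (245811, 205647, 305059 and 231316 in b/b jejunum, +/b jejunum, b/b duodenum and +/b duodenum) and also the highest Cubn signal in 3 of the 4. The highest signal of any probe set was also larger on those arrays, 85087 to 145043, against 30742 to 51250 on the replicate 3 arrays. The part of these array differences in the spread of Cubn, Amn, Tcn2 and Slc46a1 was not tested.

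The genes whose log2 signals were most like each member over the 12 arrays were found by Pearson correlation over all genes with a tested probe set, and no p is given. For Cubn they were Aqp1, a water channel (r = 0.97), Efr3b (0.96) and Cmahp (0.96). For Folr1 they were Cmahp (0.96), Nts, the gene of the gut peptide neurotensin (0.95), and the transcription factor gene Osr2 (0.94). Nts and Osr2 are among the distal markers used above. For Slc19a1 they were Tnfsf13 (0.97), Abhd4 (0.96) and Napa, a factor of vesicle fusion (0.96). Amn was most like Naaladl1, Hspa12a and Smpd2 (0.92 each), Slc46a1 was most like Cnp (0.96), Dglucy (0.94) and Zfp574 (0.94), and Tcn2 was most like Clrn3 (0.93), Spint1 (0.90) and Hapln2 (0.90).

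Most other genes of B12, folate and other water-soluble vitamin handling did not pass between the segments. Of 52 symbols in 5 lists, 45 were on the array and 35 were tested, each by its brightest tested probe set. The 52 include the older names Gif and Mut beside Cblif and Mmut. Over both genotypes 2 passed as higher in the jejunum and 1 as lower, 3 of 35, where 1.4% of all probe sets passed, and the median change of the 35 was 0.17 against 0.07 for all. By list, 1 of 9 tested genes of folate deconjugation and transport passed as higher and 1 as lower, 1 of 6 other water-soluble vitamin transporters passed as higher, and 0 of 6 cobalamin transport genes, 0 of 6 cobalamin processing genes and 0 of 8 folate interconversion enzymes passed. In b/b rats 1 of 35 passed (0.763% of all probe sets) and in +/b rats 0 of 35 (0.0565%). Between the genotypes 0 of 35 passed in the duodenum (0.0396% of all) and in the jejunum (0.0339%). In the interaction it was 0 of 35 (0%). With shares this low, such counts of 0 say little about these genes.

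Naaladl1, a brush border dipeptidase related to the folate hydrolase Folh1, had 18833, 15684 and 11683 in b/b jejunum and 15081, 10502 and 7140.1 in +/b jejunum, against 7884, 3928 and 4093 in b/b duodenum and 6153, 7202 and 4809 in +/b duodenum. Its b/b segments did not overlap and its +/b segments did. The change was 1.59 ± 0.32 in b/b rats (adjusted p = 0.0343) and 1.19 ± 0.23 over both genotypes (adjusted p = 0.0151), higher in 6 of 6 groups of rats. The b/b call was lost under 9 of 25 alternatives, among them leaving out b/b duodenum replicate 2 (adjusted p = 0.198), replicate 3 (0.133), b/b jejunum replicate 1 (0.141) or replicate 2 (0.169), +/b duodenum replicate 1 (0.0513) or +/b jejunum replicate 2 (0.0607). Over both genotypes it was lost without b/b duodenum replicate 2 (0.0584) or b/b jejunum replicate 2 (0.0518). Without both arrays deposited unscaled, which left replicate 1 alone in +/b duodenum, the change over both genotypes was 1.17. Folh1 itself was too dim to be tested, with means of 16.5 and 36.3 on its probe sets.

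Slc52a3, an apical riboflavin transporter, had 718, 743 and 975 in b/b jejunum and 696, 426 and 549.9 in +/b jejunum, against 405, 263 and 519.9 in b/b duodenum and 304, 249.9 and 280.1 in +/b duodenum. Neither genotype's segments overlapped. The change over both genotypes was 0.99 ± 0.19 (adjusted p = 0.0148). The call was lost without +/b jejunum replicate 1 (0.91, adjusted p = 0.0544) and with median centring (0.97, adjusted p = 0.0519). Without both arrays deposited unscaled, which left replicate 1 alone in +/b duodenum, the change was 0.93. A second, dimmer probe set of Slc52a3 had segments that overlapped in both genotypes.

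Abcc2, an apical efflux pump of organic anions, had 1992, 1502 and 3164 in b/b jejunum and 1799.8, 1703 and 2155 in +/b jejunum, against 3096, 3942 and 4349 in b/b duodenum and 3303, 3429.9 and 2938 in +/b duodenum. Its b/b segments overlapped and its +/b segments did not. It was lower in the jejunum of 6 of 6 groups of rats, by -0.80 ± 0.17 over both genotypes (adjusted p = 0.0328). That call was lost when any one of 8 of the 12 arrays was left out (values -0.79 to -0.68, adjusted p up to 0.105). It was also lost with median centring (-0.82, adjusted p = 0.184). On the values as deposited the direction turned to 0.06, where the median change of all tested probe sets was 0.84.

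Among the other genes of the lists, Mthfs, which returns 5-formyltetrahydrofolate to the folate pool, had a change of 0.51 ± 0.14 (adjusted p = 0.0937) over both genotypes, and Mmachc, a cytosolic cobalamin processing protein, one of 0.69 ± 0.22 (0.177). The mitochondrial folate enzyme Aldh1l2 had -1.19 ± 0.44 (0.261). The cobalamin transport list of 6 tested genes had no call, with Abcd4 at 0.35 ± 0.18, Dab2 at 0.33 ± 0.32 and Lmbrd1 at 0.26 ± 0.19. The ascorbate transporter gene Slc23a2 had 2094, 3417 and 2757 in b/b duodenum against 1473, 1137 and 235 in +/b duodenum, a genotype change of 1.85 ± 0.50 whose adjusted p was 0.66. Its dimmer probe set averaged 271 ± 252 in b/b duodenum and 192 ± 100.4 in +/b duodenum (SD, n = 3 each), with overlap. The 235 of the brighter probe set came from +/b duodenum replicate 3, an array deposited unscaled. No value of Slc23a2 without that array is given.

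**Figure D4:**
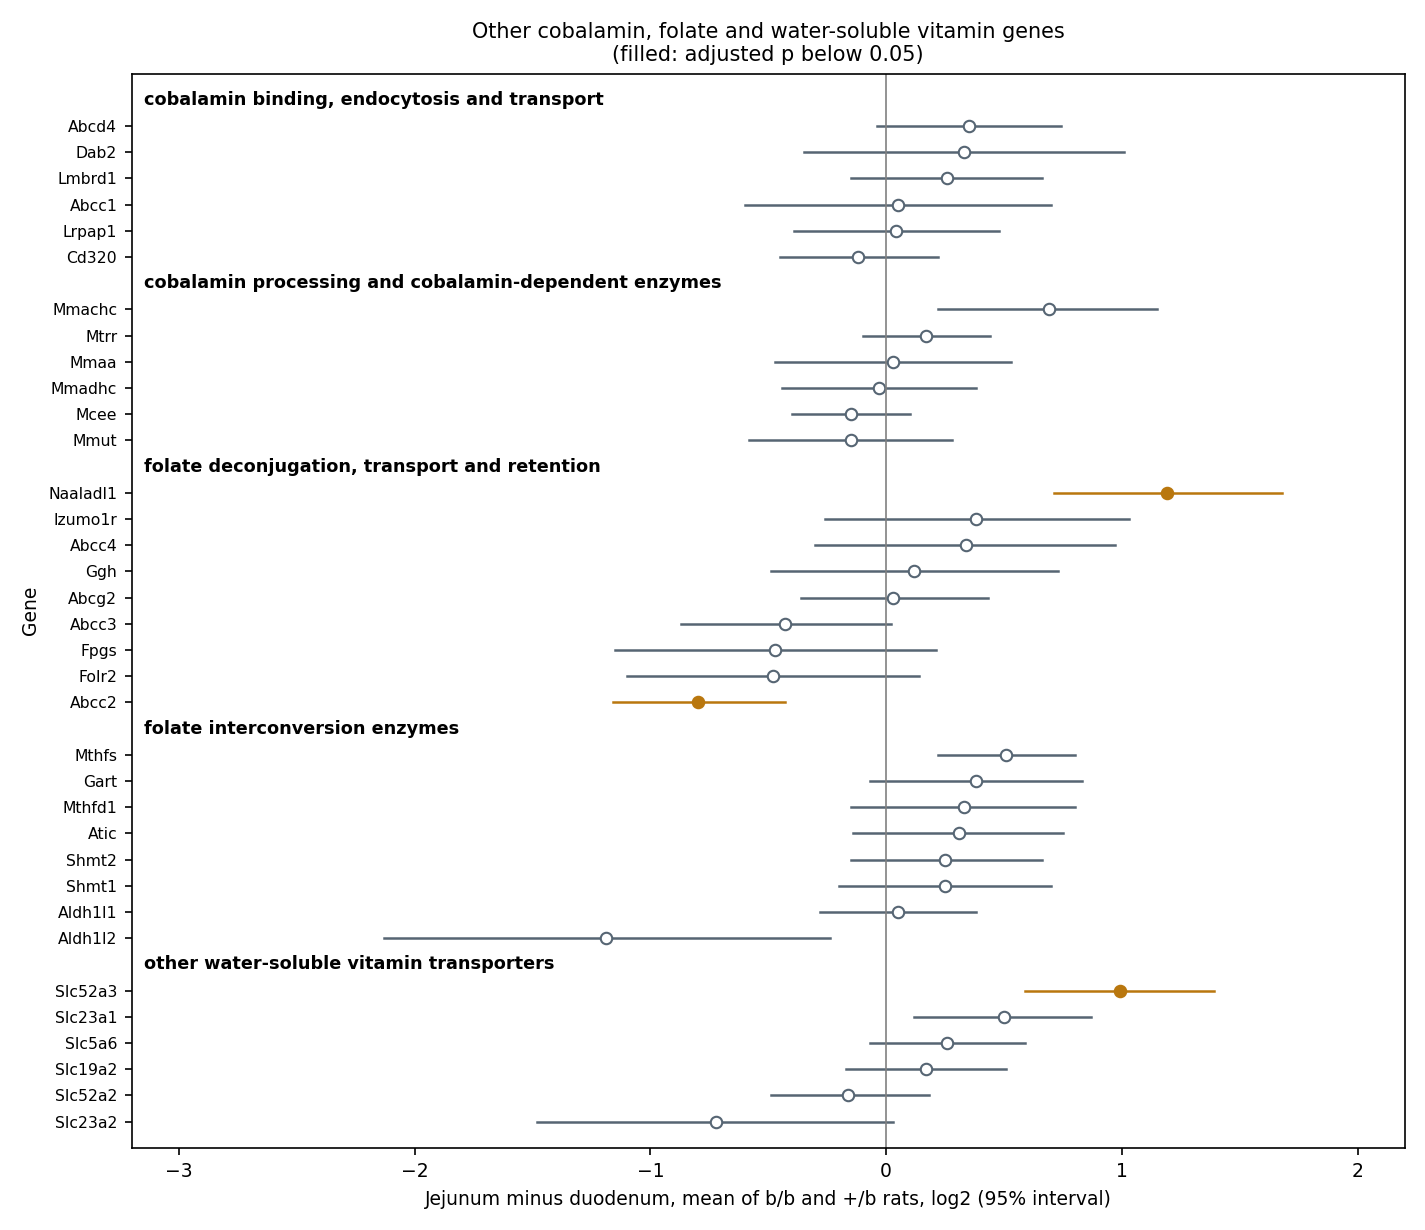
Log2 change of jejunum minus duodenum with its 95% interval for the 35 tested genes of the 5 pathway lists, as the mean of b/b and +/b rats. Filled symbols mark an adjusted p below 0.05, which Naaladl1 (1.19), Slc52a3 (0.99) and Abcc2 (-0.80) reached.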

How the data were processed

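RNA of mucosal scrapes (Trizol, then column purification) was labelled with biotin and hybridised to Affymetrix arrays, per the labels' protocols. The deposited values are linear signal intensities, 1 per probe set. Per the submitters' processing notes, 10 of the 12 arrays were processed with MAS5, whose version and settings the sources used here do not give. Each array was scaled to a 2% trimmed mean of 500, 57 controls were removed, and the 17694 of 31099 probe sets with a mean of at least 100 were tested.

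The values log2(scaled signal + 16) were fitted with limma 3.58.1 (R 4.3.3; lmFit, eBayes with trend) as 4 group means over 12 arrays. Changes of dim genes are understated by the added 16. P-values are two-sided and adjusted by Benjamini-Hochberg over all tested probe sets. The fit was tested on simulated data. Precision is limited by 3 arrays per group. P-values of this fit rest on the spread between arrays of the same genotype and segment, which come from different groups of rats. With the group of rats as a block they rest on the spread of the segment differences.

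Within a genotype, jejunum and duodenum arrays of the same number deviated together from their group means (correlations 0.16 to 0.38 in b/b and 0.19 to 0.28 in +/b rats). The pairing rests on the series design and the numbers in the titles. Same-numbered arrays of different rats did so too, with 0.12 to 0.42 between jejunum arrays, 0.14 to 0.45 for b/b duodenum with +/b jejunum and 0.03 to 0.26 for +/b duodenum with b/b jejunum, while duodenum arrays had -0.06 to 0.16. The numbers therefore do not single out shared rats.

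The members and lists were chosen with earlier results of these data known. All member probe sets were named. Of the lists, genes that passed and up to 3 per list with the largest change over both genotypes were eligible. Slc23a2 between genotypes and the promoter motifs were picked after values or sequences were seen. Alternatives covered pseudocount, filter, scaling, blocks, array weights and left-out arrays.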

Additional observations from a re-analysis of the deposited data

How the results depend on the processing

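Over 44 changes of members and called pathway genes under up to 25 alternatives, 985 of 1071 values kept direction and side of the threshold, 30 lost the threshold, 33 gained it and 23 turned. The changes of Tcn2 and Slc46a1 over both genotypes were left out of these numbers and of the turned changes listed below. Cubn and Folr1 in b/b rats passed under all 25 alternatives run (adjusted p up to 0.0171 and 0.00654). The counts of called member probe sets moved as follows. In +/b rats between segments, 0 of 7 became 1 with median centring, array weights or only the compared groups, 4 on values as deposited, 3 with the replicate block by rat group or by number, 2 with a random block, and 0 to 1 leaving out 1 array. Over all 17694 tested probe sets the calls were 8, 18 and 16 in the order named, and 8673 on values as deposited. They were 86 and 71 with the blocks by rat group and by number, 55 with a random block, and 2 to 21 leaving out 1 array. The 4 of 7 on values as deposited is thus no trait of the members. In b/b rats, 3 of 7 became 5 with either replicate block or array weights, 4 with a random block or quantile normalization, 2 on values as deposited, and 2 to 4 leaving out 1 array. The calls over all tested probe sets were then 431 and 398 with the blocks by rat group and by number, and 642 with array weights. They were 351 with a random block, 147 with quantile normalization, 40 as deposited and 33 to 235 leaving out 1 array. Over both genotypes, 3 became 5 with either replicate block, 4 with a random block, quantile normalization or array weights, 2 on values as deposited (Slc19a1 -0.47, adjusted p = 0.411), and 3 to 4 leaving out 1 array. Here the calls over all tested probe sets were 795 and 710 with the blocks, 712 with a random block and 268 with quantile normalization. Array weights gave 595, values as deposited 187, and leaving out 1 array 139 to 354. Genotype and interaction counts stayed at 0 under every alternative run, the number block included. Of all tested probe sets 3 to 15 were called in the duodenal genotype comparison, or 366 as deposited. In the jejunal one 2 to 8 were called, and in the interaction 0 to 3. Where only the compared groups were fitted, the comparisons over all 4 groups are the fit as reported, and the rat group block gives no genotype contrast.

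Values as deposited, without the scaling of 2 dim arrays, turned the duodenal genotype change of Cubn (0.85), Amn (1.56 by the dimmer and 1.70 by the brighter probe set), Folr1 (0.20) and Slc46a1 (1.50), the +/b segment change of Tcn2 (1.50), Slc46a1 (1.44) and Slc19a1 (0.55), the interaction of Cubn (-0.39), Amn (-0.80 and -1.34), Tcn2 (-1.61) and Slc46a1 (-1.20), and the segment change of Abcc2 (0.06). That follows from the construction, since 2 +/b duodenum arrays are then 9.69 and 3.95 times dimmer. Slc19a1 in b/b rats kept -1.49 there, with an adjusted p of 1. Leaving out 1 array turned small values, with ranges in the duodenal genotype comparison of -0.03 to 0.17 for Tcn2, -0.78 to 0.37 and -0.13 to 0.11 for Amn and -0.59 to 0.06 for Slc46a1, and of -0.05 to 0.56 for Slc46a1 between segments of b/b rats. Without both arrays deposited unscaled, which left replicate 1 alone in +/b duodenum, the brighter Amn probe set turned to 0.14 in the duodenal genotype comparison. The cause of the other changes was not tested. Low signal limits Lrp2.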
